A study of Homo sapiens with 30 samples.

Results

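The 10 genes described here encode ligands and enzymes through which tumor cells restrain immune cells: CD274, PDCD1LG2, CD276, VTCN1, PVR, NECTIN2, CD47, LGALS9, NT5E and IDO1. They were taken by symbol, or by Ensembl identifier in the knockout table, and all 10 were found in each of the 3 count tables, among 60612 rows of the knockout table and 56303 rows of each of the other tables. After RBPMS knockout, LGALS9 and IDO1 fell and NT5E and PDCD1LG2 rose with both sgRNA populations, while NECTIN2 and PVR moved in opposite directions in them. The call of PDCD1LG2 in the second population was lost on leaving out some single libraries. CD274, which encodes PD-L1, passed the test in neither knockout, rose after ANKRD10-2 overexpression and fell after siANKRD10-2.

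Checkpoint ligands act on receptors of T cells, natural killer cells and macrophages. PD-L1 and PD-L2 (CD274 and PDCD1LG2) bind PD-1, and CD276 (B7-H3) and VTCN1 (B7-H4) are related B7 proteins. PVR (CD155) and NECTIN2 (CD112) bind the inhibitory receptor TIGIT and the activating receptor CD226, and CD47 gives macrophages a signal against engulfment through SIRPA. LGALS9 encodes galectin-9, a ligand of TIM-3, NT5E encodes the ectoenzyme CD73 that makes adenosine from AMP, and IDO1 starts the breakdown of tryptophan to kynurenine. Interferon gamma is a known inducer of CD274, IDO1 and LGALS9 in many epithelial cells.

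RNA-seq was run on 5637, a human bladder carcinoma cell line, with 3 libraries in each of 10 groups. The knockout table holds KO1 and KO2, cells edited at RBPMS with sgRNA 1 or sgRNA 2, and a wild type (WT) control group for each, WT1 and WT2. The overexpression table holds cells overexpressing the ANKRD10-1 or the ANKRD10-2 splice form of ANKRD10 and a Vector group that serves both, and the knockdown table holds cells transfected with siANKRD10-1, siANKRD10-2 or the control siNC. All groups share the 5637 background, culture medium and stranded mRNA library kit, and no label names an agent such as interferon. The knockout populations went through expansion of single clones per the study's discussion, so changes from the edit and from the clone cannot be told apart here. The study's figures call the controls sgCtrl where the labels say WT. The study's text also places ANKRD10-1 overexpression and ANKRD10-2 knockdown in RBPMS-edited 5637 cells, whereas the labels name 5637 alone and each of these tables has 1 control group. Nothing in the labels says that libraries of a group came from separate cultures, so p-values measure the spread between these libraries, which may be technical.

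Total counts per library ranged from 44593108 to 69723937 in the knockout table, from 31736779 to 47493499 in the overexpression table and from 28511029 to 32784584 in the knockdown table. RBPMS was 38.9, 42.2 and 40.3 CPM (counts scaled to the library total after TMM normalization within a table) in WT1 and 15.2, 15.2 and 14.2 CPM in KO1, and it was 44.5, 42.8 and 42.7 CPM in WT2 and 20.5, 18.8 and 21.4 CPM in KO2. It fell by 1.44 ± 0.07 and 1.09 ± 0.06 on the log2 scale (edgeR adjusted p = 1.25e-07 and 5.07e-08), so part of its mRNA remained in both populations. RBPMS had means of 5.13 CPM in Vector, 4.51 with ANKRD10-1 and 5.39 with ANKRD10-2. Its means were 5.01 CPM in siNC, 4.65 after siANKRD10-1 and 5.11 after siANKRD10-2. These levels lie below those of KO1 and KO2, but the tables were normalized separately, and the difference and the editing state of these cells were not tested. In the knockouts ANKRD10 fell on the log2 scale by 1.18 ± 0.05 in KO1 and 0.76 ± 0.04 in KO2 (edgeR adjusted p = 6.55e-08 and 3.98e-08). ANKRD10 rose in the ANKRD10-1 and ANKRD10-2 groups by 0.67 and 0.41 and fell by 0.24 and 0.25 after siANKRD10-1 and siANKRD10-2. The counts cover all its splice forms, so these values do not check which form was targeted. Without siNC replicate 1 or siANKRD10-1 replicate 3 the siANKRD10-1 value missed the threshold (edgeR adjusted p = 0.0607 and 0.0636). The 7 epithelial markers were present in every group, with a summed level of 2677 to 5593 CPM per library. The 11 leukocyte markers summed to 1.305 to 25.3 CPM, most of it CD68 in the overexpression and knockdown tables. The 5 fibroblast markers summed to 27.8 to 57.0 CPM, most of it COL1A1, and the 3 endothelial markers to 1.12 to 3.04 CPM. In bulk RNA, fewer cells that express a gene and less RNA per cell cannot be told apart.

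Each treated group was tested against its own control with edgeR's quasi-likelihood test over all genes, and a gene was called at a Benjamini-Hochberg adjusted p under 0.05. VTCN1 passed the filter on low counts in none of these comparisons, and PDCD1LG2 passed it in all but those that include siANKRD10-2. In KO1, 3 of 9 tested ligands rose and 5 fell, where 36.1% of all genes tested were called. In KO2, 4 of 9 rose and 2 fell, beside 38.5% of all genes. With ANKRD10-1 overexpression 1 of 9 rose and 2 fell (all genes, 6.31%), and with ANKRD10-2 overexpression 2 of 9 rose and 2 fell (all genes, 19.9%). No ligand of 9 was called after siANKRD10-1 with edgeR (all genes, 10.6%), nor with DESeq2, while NECTIN2 and PVR, 2 of the 9, had an unadjusted p under 0.05, and 2 of 8 fell after siANKRD10-2 (all genes, 36.3%). The median log2 fold change of the tested ligands lay between -0.17 and 0.14 in these 6 comparisons, while that of all genes lay between -0.016 and 0.004.

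**Figure D1:**
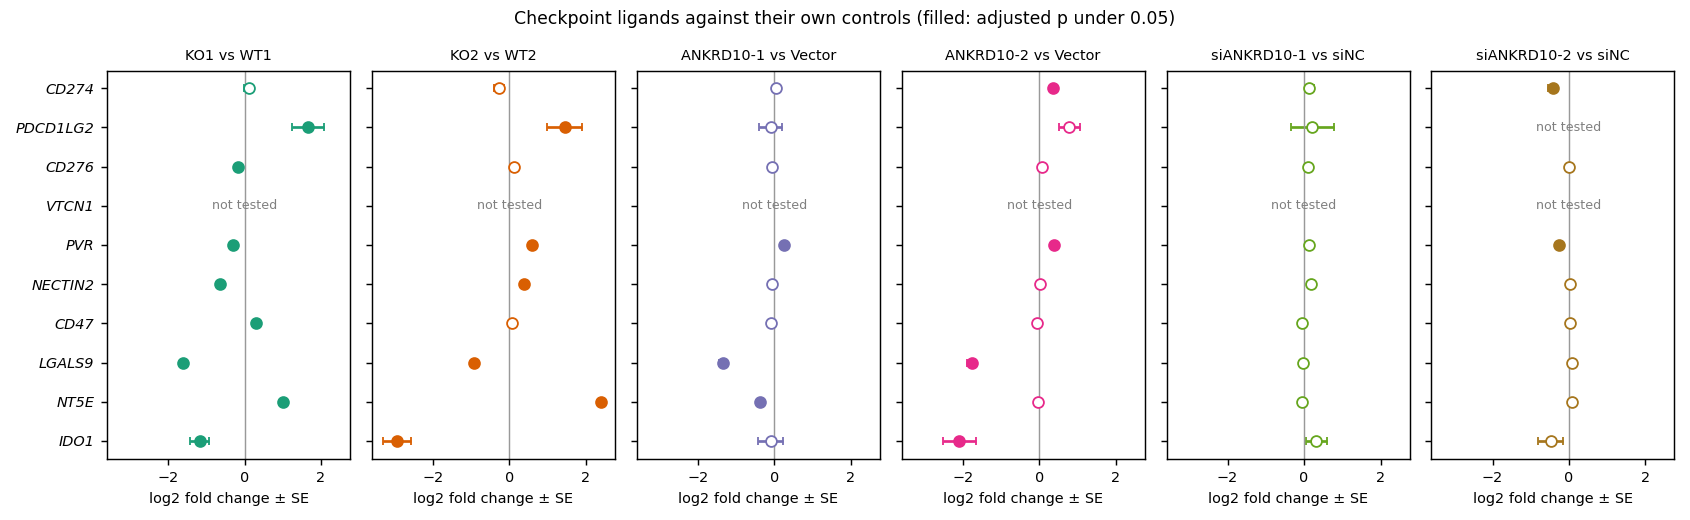
Log2 fold change (x axis, with standard error) of each ligand gene (y axis) in the 6 comparisons with a control group, 3 libraries against 3; filled points have an adjusted p under 0.05. LGALS9 lies left of 0 in both knockouts and both overexpression groups and near 0 in both knockdowns, and NT5E reaches 2.40 in KO2.

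Levels were ordered per kilobase of exon, within a group. In WT1, NECTIN2 led with 32.9 CPM per kb ± 1.43 (SD, n = 3), followed by CD276 with 24.4 ± 1.24. CD47 (19.1 ± 0.469) and PVR (18.9 ± 0.609) overlapped, and LGALS9, NT5E and CD274 followed with 5.95, 3.66 and 2.05 CPM per kb. IDO1 (0.914), PDCD1LG2 (0.192) and VTCN1 (0.0595) closed the order. WT2 gave the same order, with CD47 above PVR in every library. In the Vector group PVR led with 48.3 CPM per kb ± 2.56, and CD274 stood at 13.5 ± 0.376, beside 1.89 ± 0.152 in siNC. These tables were normalized separately and are set side by side only as levels, so no difference between them was tested.

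**Figure D2:**
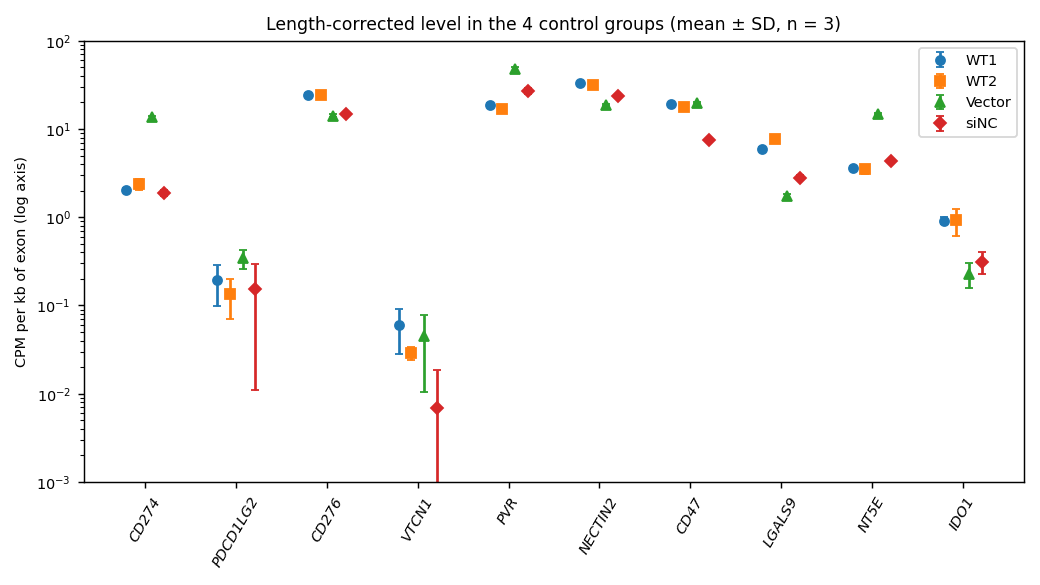
Level of each ligand gene in the 4 control groups as CPM per kilobase of exon on a log axis (mean with SD of 3 libraries). In the WT groups NECTIN2 and CD276 are highest, and in Vector PVR is highest and CD274 reaches 13.5 CPM per kb.

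CD274 and PDCD1LG2 lie 40004 bases apart on chromosome 9, at chr9:5450503-5470566 and chr9:5510570-5571254 (GRCh38, plus strand, gene bodies with all exons and introns). CD274 was 8.90, 8.29 and 8.05 CPM in WT1 and 7.95, 9.93 and 9.23 CPM in KO1, and the groups overlapped. Its log2 fold change was 0.11 ± 0.12 (SE; edgeR adjusted p = 0.551). In WT2 it was 11.1, 9.52 and 8.33 CPM and in KO2 7.36, 7.02 and 9.34 CPM, again with overlap, and the log2 fold change was -0.27 ± 0.14 (edgeR adjusted p = 0.149).

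PD-L2 mRNA was scarce in every library. PDCD1LG2 was 0.422, 0.686 and 0.254 CPM in WT1 and 1.08, 1.77 and 1.44 CPM in KO1, where all 3 libraries lay above all WT1 libraries, and it rose by 1.66 ± 0.42 on the log2 scale (edgeR adjusted p = 0.00928). Libraries of WT2 had 0.480, 0.305 and 0.171 CPM and those of KO2 0.954, 0.651 and 0.991 CPM, again without overlap, and it rose by 1.45 ± 0.46 (edgeR adjusted p = 0.0266). The KO2 call rests on 12 to 63 reads per library: without KO2 replicate 1 or 3, or WT2 replicate 2 or 3, the adjusted p was 0.0725, 0.0834, 0.0648 or 0.0794. The KO1 and KO2 effects on PDCD1LG2 differed by 0.21 ± 0.62 and those on CD274 by 0.38 ± 0.19, neither past the threshold (edgeR adjusted p = 0.870 and 0.187).

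The genes around this locus moved in KO2. Of 27 other genes tested within 5 Mb of CD274, 20 fell and 1 rose in KO2, with a median log2 fold change of -0.60, and the median of all of chromosome 9 was -0.41. In KO1 the 28 neighbours had a median of 0.08. PDCD1LG2 rose in KO2 in a stretch where most tested genes fell, and CD274 had a value of -0.27, nearer to 0 than the median of its neighbours. The part of this regional shift in the values of both genes was not tested.

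**Figure D3:**
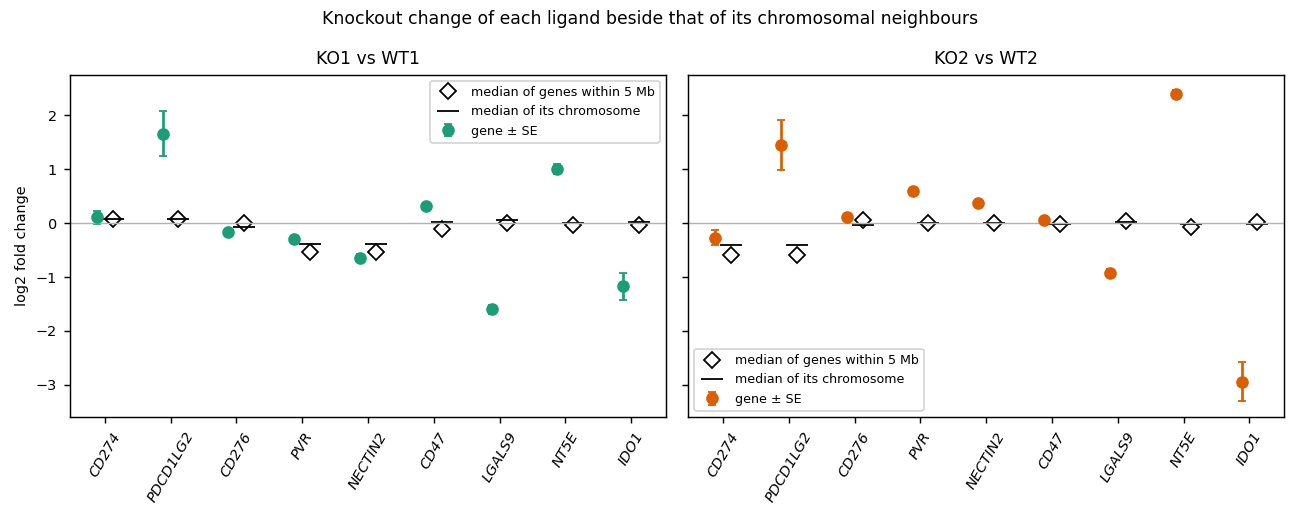
Log2 fold change (y axis) of each tested ligand gene (filled circles with standard error) in KO1 and KO2, with the median of the other genes within 5 Mb (open diamonds) and of its chromosome (bars). In KO1 the neighbours of PVR and NECTIN2 lie near -0.54, and in KO2 those of CD274 and PDCD1LG2 lie at -0.60, while the neighbour medians of the other genes lie between -0.11 and 0.08.

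ANKRD10-2 overexpression went with more CD274 mRNA. CD274 was 56.4, 56.2 and 53.6 CPM in Vector, 56.6, 58.3 and 56.3 CPM with ANKRD10-1 and 66.2, 75.6 and 70.7 CPM with ANKRD10-2. All ANKRD10-2 libraries lay above all others, and the log2 fold change against Vector was 0.36 ± 0.06 (edgeR adjusted p = 0.000662), whereas that of ANKRD10-1 was 0.04 ± 0.05 (edgeR adjusted p = 0.708). Tested directly, ANKRD10-2 exceeded ANKRD10-1 by 0.32 ± 0.06 (edgeR adjusted p = 0.00156), in a comparison in which 4 of 9 ligands and 7.26% of all genes were called.

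After siANKRD10-2, CD274 went the other way. CD274 was 7.41, 7.38 and 8.48 CPM in siNC, 8.91, 9.28 and 7.53 CPM after siANKRD10-1 and 5.14, 6.54 and 5.60 CPM after siANKRD10-2. The siANKRD10-2 libraries lay below all others, with a log2 fold change of -0.43 ± 0.12 against siNC (edgeR adjusted p = 0.00702), while siANKRD10-1 gave 0.14 ± 0.11 (edgeR adjusted p = 0.461). Against siANKRD10-1 the value was -0.57 ± 0.12 (edgeR adjusted p = 0.000849), in a comparison in which 3 of 8 ligands and 37.0% of all genes were called. The overexpression and knockdown experiments have separate controls, and CD274 stood at a higher level in all 9 overexpression libraries than in any knockdown library.

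PDCD1LG2 was 0.577, 0.891 and 0.952 CPM in Vector, 0.858, 0.634 and 0.772 CPM with ANKRD10-1 and 1.64, 1.49 and 1.05 CPM with ANKRD10-2. The ANKRD10-2 libraries lay above the others, but the log2 fold change against Vector of 0.79 ± 0.28 missed the threshold (edgeR adjusted p = 0.0609), and that against ANKRD10-1 of 0.88 ± 0.27 lay at it (edgeR adjusted p = 0.050) and was lost on leaving out any of 5 of the 6 libraries. In the knockdown table it had 2 to 24 reads per library.

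The promoter windows of 8 of the 10 genes were matched in the RefSeq table for GRCh38.p14, each from 250 bases before to 50 bases after a start site. They were searched on both strands for the E-box CACGTG, at which MYC binds, for the interferon gamma activated site TTCNNNGAA and for the interferon stimulated response element, both found in promoters of interferon-induced genes. PDCD1LG2 and IDO1 had no window and were not searched. CD274 and LGALS9 are printed because they alone of the 8 held a match, in capitals.

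CD274, chr9:5450292-5450591, plus strand: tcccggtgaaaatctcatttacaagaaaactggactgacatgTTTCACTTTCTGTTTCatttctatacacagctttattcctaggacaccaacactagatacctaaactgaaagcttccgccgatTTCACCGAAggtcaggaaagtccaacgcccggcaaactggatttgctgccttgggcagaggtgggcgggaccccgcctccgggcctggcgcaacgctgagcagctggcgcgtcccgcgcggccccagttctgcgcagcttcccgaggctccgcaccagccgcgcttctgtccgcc

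LGALS9, chr17:27630938-27631237, plus strand: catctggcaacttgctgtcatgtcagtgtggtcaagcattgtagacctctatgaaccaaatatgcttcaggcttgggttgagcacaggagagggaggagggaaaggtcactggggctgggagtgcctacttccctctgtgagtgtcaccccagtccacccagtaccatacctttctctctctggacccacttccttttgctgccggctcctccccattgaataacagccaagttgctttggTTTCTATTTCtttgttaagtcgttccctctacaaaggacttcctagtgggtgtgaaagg

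In CD274 the capitals TTTCACTTTCTGTTTC hold 2 overlapping matches of the response element read on the minus strand, and TTCACCGAA is the activated site. In LGALS9 TTTCTATTTC is the response element on the minus strand. Among 35116 windows of this length, 3.57% held the response element, 7.66% the activated site and 7.26% the E-box, which was in none of the windows of these genes. A match of letters is not a measured binding site.

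The 22 genes of PD-L1 induction and stability described here were all tested. In KO1 6 rose and 3 fell (all genes, 36.1%) and in KO2 12 rose and 5 fell (all genes, 38.5%). SOCS3, an inhibitor of cytokine signalling, rose by 1.42 ± 0.25 in KO2 (edgeR adjusted p = 0.000743). IRF1, the interferon regulatory factor that drives CD274, rose by 0.33 and 0.24, and CMTM6, which protects PD-L1 at the membrane, by 0.29 and 0.27, in KO1 and KO2. These 2 genes were named after their values were seen.

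In both overexpression groups IRF9 and STAT2, subunits of an interferon-activated transcription factor, fell. IRF9 had means of 102.9 CPM in Vector, 35.6 CPM with ANKRD10-1 and 31.7 CPM with ANKRD10-2, and fell by 1.53 and 1.69 (edgeR adjusted p = 2.96e-13 and 6.78e-11). STAT2, named after its values were seen, fell by 0.56 and 0.69. IRF9 and STAT2 were the 2 genes among the 22 called with ANKRD10-1 (all genes, 6.31%). With ANKRD10-2, MYC rose by 0.55 ± 0.06 (edgeR adjusted p = 2.16e-05), HIP1R by 0.15, and CMTM6 and NFKB1 fell by 0.34 and 0.43. CD274 rose in the ANKRD10-2 group while STAT2 and IRF9 fell in it.

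After siANKRD10-1, 2 genes of this list rose and 7 fell (all genes, 10.6%), and after siANKRD10-2, 5 rose and 6 fell (all genes, 36.3%). IRF1 fell by 0.72 ± 0.06 after siANKRD10-2, from 111 to 67.5 CPM (edgeR adjusted p = 2.83e-10), and HIP1R, which directs PD-L1 to lysosomes, rose by 0.61 ± 0.06 (edgeR adjusted p = 9.11e-09). JAK2 fell by 0.38 ± 0.12 and SOCS3 rose by 0.42 ± 0.11 after siANKRD10-1 (edgeR adjusted p = 0.0468 and 0.0189). The JAK2 call was lost without any 1 of siNC replicates 1 and 3 or the 3 siANKRD10-1 libraries (adjusted p 0.0659 to 0.195), and that of SOCS3 without siNC replicate 2 or siANKRD10-1 replicates 1 or 3 (adjusted p 0.0725 to 0.127).

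**Figure D4:**
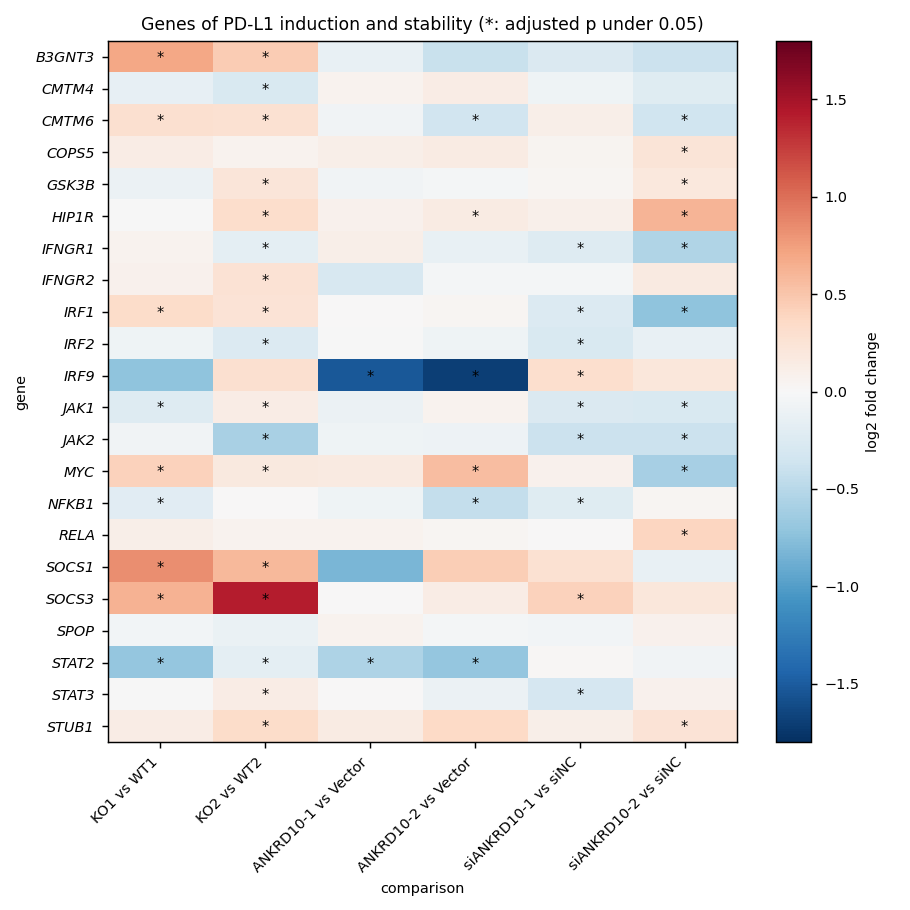
Log2 fold change (colour) of 22 genes of PD-L1 induction and stability (rows) in the 6 comparisons with a control group (columns); stars mark an adjusted p under 0.05. IRF9 and STAT2 are blue in both overexpression columns, and SOCS3 is darkest red in KO2.

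CD276 lies at chr15:73683966-73714518 (plus strand) and encodes B7-H3, a B7 protein common on carcinoma cells. It was 127, 139 and 139 CPM in WT1 and 123, 115 and 121 CPM in KO1, without overlap, and fell by 0.17 ± 0.05 on the log2 scale (edgeR adjusted p = 0.0236). This call was lost without KO1 replicate 2, WT1 replicate 2 or WT1 replicate 3 (adjusted p 0.0587, 0.108 and 0.0787). The WT2 libraries had 135, 134 and 130 CPM and in KO2 140, 136 and 150 CPM, a log2 fold change of 0.11 ± 0.04 (edgeR adjusted p = 0.0535), and the effects differed by -0.28 ± 0.07 (KO1 minus KO2; edgeR adjusted p = 0.00484). In the overexpression and knockdown comparisons with a control its log2 fold changes lay between -0.06 and 0.10, none past the threshold.

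VTCN1, at chr1:117143587-117210960 (minus strand), was at the limit of detection. It had 15, 8 and 7 reads in WT1 and 0 in all 3 KO1 libraries. With 3 reads in a library taken as the floor (0.0673 CPM in KO1), the WT1 mean of 0.18 CPM lay 2.68-fold above it. WT1 replicate 3 lay nearer to the floor, at 0.1045 CPM. KO2 had 12, 0 and 4 reads and WT2 6, 4 and 7, which overlap, and the other tables had 0 to 12. None of these differences was tested, and counting error alone is large at such numbers.

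Of 13 other B7 and butyrophilin genes 8 were tested in each knockout. Among them 2 rose and 2 fell in KO1 (all genes, 36.1%) and 1 rose and 4 fell in KO2 (all genes, 38.5%). ICOSLG, the ligand of the costimulatory receptor ICOS, fell from 2.65 to 1.34 CPM in KO1 and from 2.59 to 1.32 CPM in KO2, by 0.98 ± 0.27 and 0.96 ± 0.23 (edgeR adjusted p = 0.0153 and 0.00604). The KO1 call was lost without KO1 replicate 1 or WT1 replicate 3 (adjusted p 0.0622 and 0.0741). The butyrophilins BTN3A1 and BTN3A2, which gamma delta T cells need to sense phosphoantigens, were named after their values were seen. They were the 2 of 8 tested genes that fell with ANKRD10-1 (all genes, 6.31%). With ANKRD10-2 they and BTN3A3 fell, of 7 tested (all genes, 19.9%). After siANKRD10-1 0 of 7 were called with edgeR and with DESeq2 (all genes with edgeR, 10.6%) and 2 had an unadjusted p under 0.05. After siANKRD10-2 BTN2A1 fell by 0.17, the 1 gene called of 7 (all genes, 36.3%). CD80 and CD86, the ligands of CD28 and CTLA4, had 0 to 16 reads in every library.

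**Figure D5:**
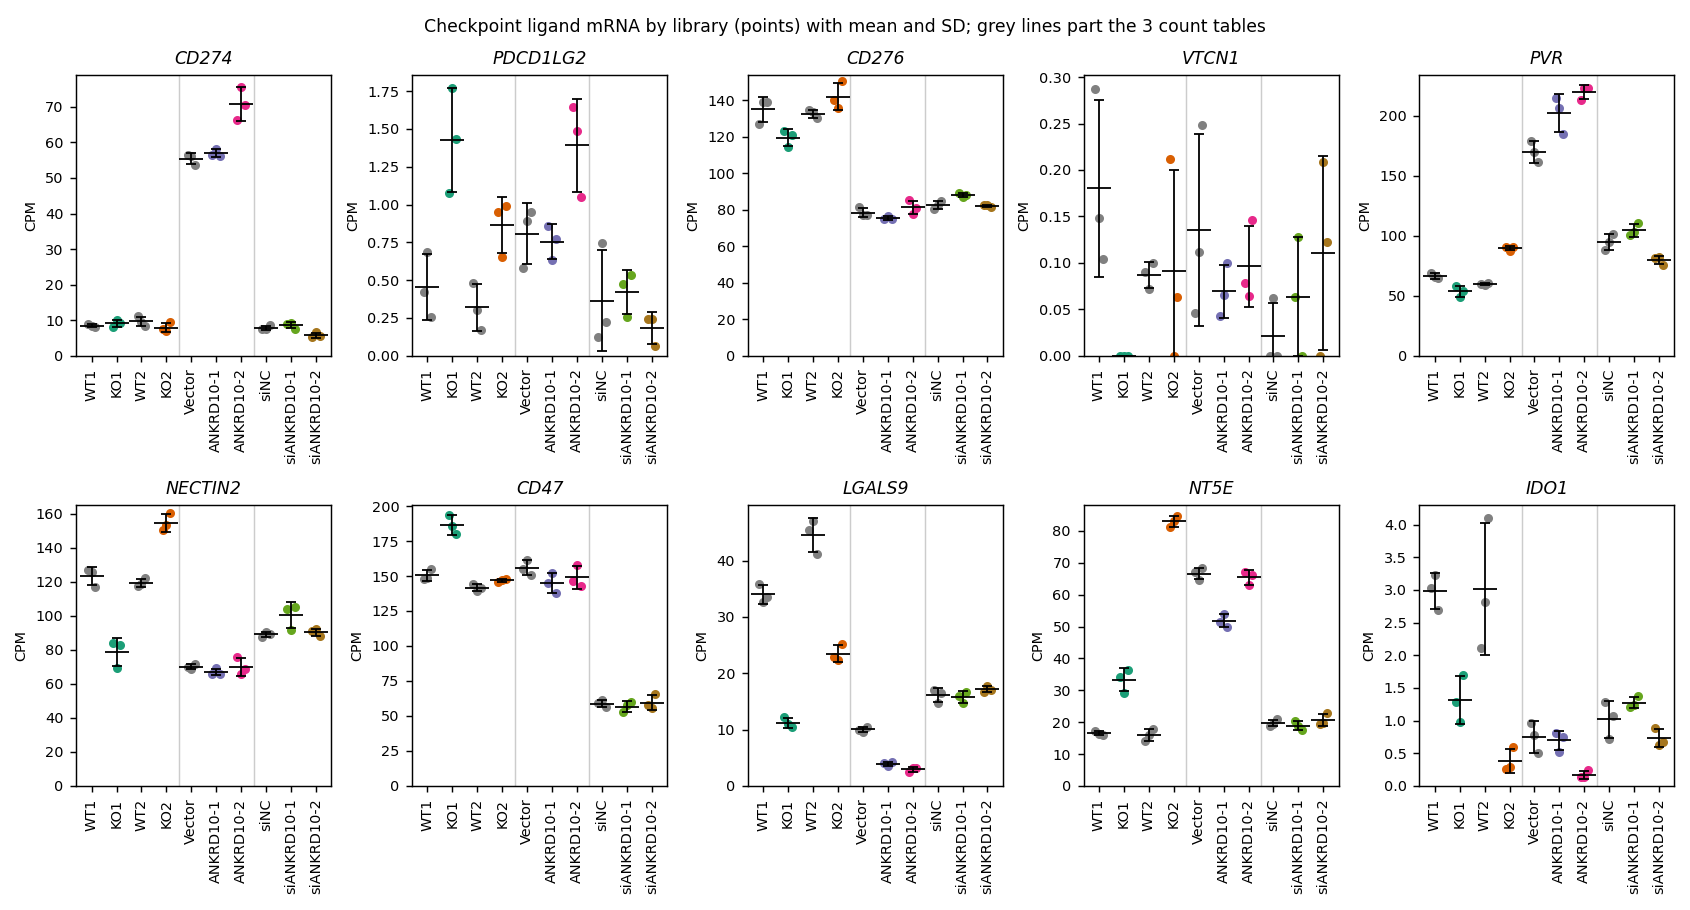
CPM of each ligand gene in every library (points) of the 10 groups, with the mean and SD of 3 libraries; vertical lines part the 3 count tables and each panel has its own axis from 0. The KO1 and KO2 libraries of NT5E lie above, and those of LGALS9 and IDO1 below, all WT libraries.

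PVR (chr19:44643798-44663583) and NECTIN2 (chr19:44846175-44889228, both plus strand) lie 182.6 kb apart. PVR was 68.9, 65.8 and 64.7 CPM in WT1 and 57.9, 49.0 and 54.1 CPM in KO1, and fell by 0.30 ± 0.06 on the log2 scale (edgeR adjusted p = 0.00366). In WT2 it was 60.1, 59.0 and 60.7 CPM and in KO2 90.8, 87.5 and 90.6 CPM, and rose by 0.59 ± 0.04 (edgeR adjusted p = 3.91e-07). The groups did not overlap in either knockout, and the difference of the effects was -0.90 ± 0.08 (edgeR adjusted p = 3.46e-07).

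NECTIN2 split in the same manner. It was 127, 126 and 117 CPM in WT1 and 83.9, 69.3 and 82.9 CPM in KO1, and fell by 0.64 ± 0.07 (edgeR adjusted p = 5.45e-05). In WT2 it was 117, 119 and 122 CPM and in KO2 150, 153 and 160 CPM, and rose by 0.38 ± 0.04 (edgeR adjusted p = 6.93e-06). No KO1 library reached a WT1 library and no KO2 library fell to the level of a WT2 library, and the effects differed by -1.03 ± 0.09 (edgeR adjusted p = 2.91e-07).

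Much of chromosome 19 was lower in KO1. Of 259 other genes tested within 5 Mb of NECTIN2, 157 fell and 5 rose in KO1, with a median log2 fold change of -0.53, and the median of the 1196 other chromosome 19 genes was -0.38. In KO2 the 275 neighbours had a median of 0.002, with 62 rises and 51 falls. The KO1 values of PVR and NECTIN2 lie on either side of the median of their neighbourhood, and the rises in KO2 of 0.59 and 0.38 lie above it. The part of the regional shift in the KO1 falls was not tested.

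PVR also moved with both ANKRD10 forms. It was 179, 170 and 161 CPM in Vector, 215, 207 and 185 CPM with ANKRD10-1 and 213, 223 and 223 CPM with ANKRD10-2, and rose by 0.25 ± 0.06 and 0.38 ± 0.05 (edgeR adjusted p = 0.0106 and 0.000131). Without ANKRD10-1 replicate 1 or 2 the ANKRD10-1 call was lost (adjusted p 0.074 and 0.0585), and the forms did not differ past the threshold, by 0.13 ± 0.06 (edgeR adjusted p = 0.191). In the knockdown table PVR was 88.4, 94.5 and 101.7 CPM in siNC, 100.3, 102.9 and 111 CPM after siANKRD10-1 and 81.2, 82.3 and 75.6 CPM after siANKRD10-2. It fell by 0.25 ± 0.06 after siANKRD10-2 (edgeR adjusted p = 0.0015), without overlap, had a log2 fold change of 0.14 ± 0.06 after siANKRD10-1 (edgeR adjusted p = 0.168), and was 0.39 ± 0.06 lower after siANKRD10-2 than after siANKRD10-1 (edgeR adjusted p = 1.4e-05). CD274 and PVR were the 2 of 9 tested ligands that rose with ANKRD10-2, where 2151 of 20177 genes rose. The same 2, of 8 tested, fell after siANKRD10-2, where 3542 of 18924 genes fell. How many of all genes did both was not counted.

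NECTIN2 passed the test in none of the overexpression and knockdown comparisons with a control, with log2 fold changes of -0.07, 0.01, 0.17 and 0.02. Of 8 other nectins and adhesion ligands 6 were tested in each knockout. Among them 3 rose and 1 fell in KO1 (all genes, 36.1%) and 3 rose and 2 fell in KO2 (all genes, 38.5%). CD58, the ligand of CD2, and ICAM1, the ligand of LFA-1, were named after their values were seen and rose in both knockouts, by 0.67 and 0.38 in KO1 and by 0.35 and 0.67 in KO2. NECTIN4, the target of an antibody conjugate used in urothelial cancer, rose by 0.30 in KO1 and fell by 0.90 in KO2. CEACAM1, a ligand of TIM-3, fell by 0.88 in KO1 and rose by 0.50 in KO2, and NECTIN1 fell by 0.36 in KO2. With ANKRD10-1 0 rose and 3 of 8 fell (all genes, 6.31%) and with ANKRD10-2 0 rose and 4 of 8 fell (all genes, 19.9%). CEACAM1 fell by 1.07 ± 0.10 with ANKRD10-2 (edgeR adjusted p = 7.76e-06). After siANKRD10-1 1 of 6 rose and 2 fell (all genes, 10.6%). The falls were NECTIN3 by 0.85 ± 0.14 and NECTIN1 by 0.35 ± 0.06 (edgeR adjusted p = 0.00051 and 0.000616). After siANKRD10-2 1 of 6 rose and 3 fell (all genes, 36.3%), NECTIN1 by 0.65.

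CD47, at chr3:108043094-108091862 (minus strand) in the GENCODE annotation, was among the most abundant of these mRNAs. It was 148, 149 and 155 CPM in WT1 and 194, 186 and 180 CPM in KO1, without overlap, and rose by 0.31 ± 0.05 (edgeR adjusted p = 0.00031). Levels in WT2 were 144, 139 and 142 CPM and in KO2 146, 147 and 148 CPM, close above WT2, with a log2 fold change of 0.06 ± 0.04 (edgeR adjusted p = 0.187). The effects differed by 0.25 ± 0.05 (edgeR adjusted p = 0.00225). In the overexpression and knockdown comparisons with a control, CD47 had log2 fold changes between -0.10 and 0.02, none past the threshold.

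The other genes of the list concern phagocytosis. Calreticulin (CALR), which promotes engulfment when exposed at the surface, was called in all 6 comparisons, each time higher, by 0.36 and 0.35 in the knockouts, by 0.31 ± 0.04 with ANKRD10-1 (edgeR adjusted p = 0.00022), 0.34 with ANKRD10-2, and by 0.20 and 0.18 after the siRNAs. STC1, which can retain calreticulin inside the cell, rose from 22.5 to 73.5 CPM in KO1, by 1.71 ± 0.07 (edgeR adjusted p = 2.41e-08), and by 0.31 in KO2. THBS1, a secreted ligand of CD47, fell by 0.18 in KO1 and rose by 0.90 in KO2. It rose by 0.85 ± 0.05 with ANKRD10-2 and by 0.58 ± 0.06 after siANKRD10-1 and fell by 0.68 after siANKRD10-2 (edgeR adjusted p = 7.39e-08, 2.45e-06 and 1.14e-10). Of the 7 tested genes of this list, 3 rose and 3 fell in KO1 (all genes, 36.1%). In KO2 4 rose and 1, B2M, fell (all genes, 38.5%). With ANKRD10-1 1 rose and 2 fell (all genes, 6.31%), and with ANKRD10-2 3 rose and 2 fell (all genes, 19.9%). After siANKRD10-1 3 rose and 0 fell (all genes, 10.6%), and after siANKRD10-2 2 rose and 1 fell (all genes, 36.3%). SIRPA, the receptor of CD47, was measured in the tumor cells themselves, and fell by 0.73 in KO1 and rose by 0.48 in KO2.

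LGALS9, at chr17:27629798-27649560 (plus strand), fell in 4 of the 6 comparisons. It was 35.8, 32.7 and 33.5 CPM in WT1 and 12.2, 11.0 and 10.4 CPM in KO1, and fell by 1.60 ± 0.08 on the log2 scale (edgeR adjusted p = 2.22e-07). Levels in WT2 were 45.5, 47.1 and 41.2 CPM and in KO2 22.9, 22.3 and 25.2 CPM, and fell by 0.92 ± 0.07 (edgeR adjusted p = 5.53e-07). All knockout libraries lay below all WT libraries, and the effects differed by -0.68 ± 0.11 (edgeR adjusted p = 0.000169). The WT groups themselves differed for this gene, by 0.39 ± 0.07 in WT2 against WT1 (edgeR adjusted p = 0.0131), the 1 ligand of 9 called there beside 1.23% of all genes, and that call was lost without WT1 replicate 2 or 3 or WT2 replicate 1 or 2 (adjusted p 0.0624 to 0.0851).

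LGALS9 was 10.0, 9.53 and 10.5 CPM in Vector, 4.14, 3.56 and 4.18 CPM with ANKRD10-1 and 2.43, 3.27 and 3.15 CPM with ANKRD10-2. It fell by 1.34 ± 0.10 and by 1.77 ± 0.12 (edgeR adjusted p = 8.58e-08 and 2.84e-07), without overlap with Vector, and the forms differed by -0.42 ± 0.15, short of the threshold (edgeR adjusted p = 0.102). After siANKRD10-1 and siANKRD10-2 the log2 fold changes were -0.03 ± 0.09 and 0.09 ± 0.08 (edgeR adjusted p = 0.874 and 0.403). LGALS9 has the near-identical copies LGALS9B and LGALS9C, so the assignment of its reads is uncertain. LGALS9B had 0 to 32 reads per library, and LGALS9C had 0 to 10. These counts come from the same assignment, so they do not show the share of each copy.

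Of 9 other galectin genes, 6 were tested in each knockout. Among them 3 rose and 0 fell in KO1 (all genes, 36.1%) and 2 rose and 1, LGALS8, fell in KO2 (all genes, 38.5%). LGALS1, which encodes galectin-1, a galectin that induces T cell death, rose from 14.9 to 35.9 CPM in KO1 and from 15.2 to 41.8 CPM in KO2, by 1.27 ± 0.11 and 1.47 ± 0.08 (edgeR adjusted p = 1.15e-05 and 4.85e-08). It rose by 0.93 ± 0.11 with ANKRD10-2 and fell by 0.96 ± 0.15 after siANKRD10-2 (edgeR adjusted p = 4.72e-05 and 1.35e-05). LGALS3BP, a secreted galectin ligand induced by interferon, fell by 0.65 ± 0.05 with ANKRD10-1 (edgeR adjusted p = 2.38e-08). Of 4 tested, 0 rose and 2 fell with ANKRD10-1 (all genes, 6.31%) and 1 rose and 2 fell with ANKRD10-2 (all genes, 19.9%). After siANKRD10-1 0 were called (0 with DESeq2, 3 at an unadjusted p under 0.05 with edgeR, all genes 10.6%). After siANKRD10-2 4 fell (all genes, 36.3%).

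NT5E, at chr6:85449584-85495791 (plus strand), had the largest rise among the ligands tested in KO2. It was 17.4, 16.4 and 16.0 CPM in WT1 and 34.3, 29.3 and 36.5 CPM in KO1, and rose by 1.01 ± 0.09 on the log2 scale (edgeR adjusted p = 1.1e-05). In WT2 it was 14.01, 15.8 and 17.7 CPM and in KO2 81.3, 83.0 and 84.6 CPM, and rose by 2.40 ± 0.07 (edgeR adjusted p = 3.23e-10). Every knockout library lay above every WT library, and the KO2 effect exceeded the KO1 effect (KO1 minus KO2 -1.39 ± 0.12, edgeR adjusted p = 4.73e-07). Its neighbours within 5 Mb had medians of -0.04 in KO1 and -0.07 in KO2.

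With ANKRD10-1 NT5E fell, from 67.1, 64.6 and 68.3 CPM in Vector to 51.4, 54.0 and 49.97 CPM, by 0.37 ± 0.05 (edgeR adjusted p = 0.000158). With ANKRD10-2 it was 67.2, 62.9 and 66.2 CPM, a log2 fold change of -0.02 ± 0.05 against Vector (edgeR adjusted p = 0.835) and 0.35 ± 0.06 above ANKRD10-1 (edgeR adjusted p = 0.000538). The siRNAs gave -0.06 ± 0.08 and 0.07 ± 0.08, neither past the threshold. CD73 takes its substrate from ENTPD1 (CD39), which was 2.17 CPM in WT1 and 2.82 CPM in KO1 and had log2 fold changes of 0.37 ± 0.66 and 0.22 ± 0.44 in the knockouts, not past the threshold.

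In the adenosine list 6 of 14 tested genes rose and 2 fell in KO1 (all genes, 36.1%). In KO2 2 of 15 rose and 2 fell (all genes, 38.5%). ADA, which removes adenosine, rose from 12.6 to 28.8 CPM in KO1 and from 11.3 to 18.5 CPM in KO2, by 1.20 ± 0.12 and 0.72 ± 0.11 (edgeR adjusted p = 2.49e-05 and 0.000297). PNP, the next enzyme of purine breakdown, rose by 0.32 and 0.34, and ENPP1, an ectonucleotidase, fell by 0.54 in both, these being named after their values were seen. ADORA2A, an adenosine receptor, fell by 2.63 in KO1 and ENTPD2 fell by 0.61 in KO2. Of 12 genes tested 0 were called with ANKRD10-1 and 0 after siANKRD10-1, with edgeR and with DESeq2 (all genes with edgeR, 6.31% and 10.6%). Of these 12, 3 and 1 had an unadjusted p under 0.05. ADK and PNP rose with ANKRD10-2, and after siANKRD10-2 DPP4, the anchor of ADA, rose by 0.77 ± 0.21 (edgeR adjusted p = 0.00592) while ADA and SLC29A1 fell by 0.49 and 0.54.

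IDO1, at chr8:39902275-39928444 (plus strand), was low in this line and fell further in both knockouts. It was 3.03, 3.23 and 2.69 CPM in WT1 and 1.28, 0.975 and 1.70 CPM in KO1, and fell by 1.17 ± 0.25 (edgeR adjusted p = 0.00404). In WT2 it was 2.12, 2.82 and 4.10 CPM and in KO2 0.265, 0.296 and 0.597 CPM, with 15 to 38 reads per library, and fell by 2.94 ± 0.37 (edgeR adjusted p = 5.05e-05). The groups did not overlap, and the fall in KO2 was the larger (KO1 minus KO2 1.76 ± 0.46, edgeR adjusted p = 0.00993). Of the 9 ligands tested, 7 differed between the KO1 and KO2 effects, where 23.3% of all genes did.

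IDO1 was 0.969, 0.780 and 0.497 CPM in Vector, 0.815, 0.524 and 0.747 CPM with ANKRD10-1 and 0.130, 0.129 and 0.244 CPM with ANKRD10-2, the last from 4 to 10 reads per library. The ANKRD10-2 libraries lay below all others and fell by 2.09 ± 0.44 against Vector (edgeR adjusted p = 0.0044), while ANKRD10-1 gave -0.10 ± 0.32 (edgeR adjusted p = 0.909). Against ANKRD10-1 the difference was -1.99 ± 0.43 (edgeR adjusted p = 0.00696), lost without ANKRD10-1 replicate 1 (adjusted p 0.0539). In the knockdown table it was 1.28, 0.713 and 1.07 CPM in siNC, 1.20, 1.24 and 1.37 CPM after siANKRD10-1 and 0.891, 0.626 and 0.674 CPM after siANKRD10-2. Neither siRNA differed from siNC past the threshold, with 0.32 ± 0.28 and -0.48 ± 0.33 (edgeR adjusted p = 0.521 and 0.270). They differed from each other by -0.80 ± 0.29 (siANKRD10-2 minus siANKRD10-1, edgeR adjusted p = 0.0371), a call that failed without any 1 of siANKRD10-1 replicates 1 to 3 or siANKRD10-2 replicates 2 and 3 (adjusted p 0.0589 to 0.109).

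The tryptophan list holds enzymes and transporters. SLC7A5, the light chain that carries tryptophan, rose from 772 to 1278 CPM in KO1 and from 680.0 to 1381 CPM in KO2, by 0.73 ± 0.06 and 1.03 ± 0.02 (edgeR adjusted p = 6.61e-06 and 4.55e-11), and its partner SLC3A2 rose by 0.64 and 0.87. The same 5 genes of the list rose in both knockouts, the other 3 being KYNU, WARS1 and AHR, of 12 tested in KO1 and 11 in KO2. Of the 17445 genes tested in both knockouts, 17.7% were called in the same direction, up or down. Calls in either direction made up 66.7% and 63.6% of the list (all genes, 36.1% and 38.5%). KMO, which hydroxylates kynurenine, fell from 3.22 to 1.27 CPM in KO1, by 1.36 ± 0.32 (edgeR adjusted p = 0.00716), as did KYAT3 and AADAT, and in KO2 KYAT3 and IL4I1 fell. SLC3A2 rose by 0.26 ± 0.04 with ANKRD10-1 (edgeR adjusted p = 0.00119), the 1 gene called of 11 (all genes, 6.31%). It rose by 0.37 with ANKRD10-2, where KYAT1 rose and AHR and IL4I1 fell (all genes, 19.9%). After siANKRD10-1 AHR and IL4I1 fell, and after siANKRD10-2 AADAT and IL4I1 rose and AHR and SLC3A2 fell.

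The remaining lists hold TNF family ligands and receptors of T cell control, ligands of natural killer cells and checkpoint receptors. CD70, the ligand of CD27, fell from 1.21 to 0.332 CPM in KO1 and from 1.37 to 0.0472 CPM in KO2, by 1.88 ± 0.50 and 4.79 ± 0.49 (edgeR adjusted p = 0.0124 and 9.66e-06), the former lost without WT1 replicate 2 (adjusted p 0.070). TNFSF10, the death ligand TRAIL, fell from 115 to 33.8 CPM in KO2, by 1.75 ± 0.05 (edgeR adjusted p = 1.29e-10), and by 0.42 in KO1. It rose by 0.43 ± 0.07 after siANKRD10-1 (edgeR adjusted p = 0.000479), and TNFSF14 (LIGHT) fell by 1.00 ± 0.19 after siANKRD10-2 (edgeR adjusted p = 0.000199). Of this TNF list 2 of 6 fell and 0 rose in each knockout (all genes, 36.1% and 38.5%). With each ANKRD10 form and after siANKRD10-2 2 of 5 fell and 0 rose (all genes, 6.31%, 19.9% and 36.3%). After siANKRD10-1 1 of 4 rose and 0 fell (all genes, 10.6%).

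Of 9 ligands of natural killer cells tested, 3 rose and 0 fell in KO1 (all genes, 36.1%) and 5 rose and 0 fell in KO2 (all genes, 38.5%). MICB and ULBP2, ligands of NKG2D, rose in both, and RAET1L rose in KO2 by 1.04 ± 0.18 (edgeR adjusted p = 0.000764). Of 11 tested, 0 were called with ANKRD10-1 (0 with DESeq2, 3 at an unadjusted p under 0.05 with edgeR, all genes 6.31%). MICA and MICB rose with ANKRD10-2 (all genes, 19.9%), and MICA rose and MICB fell after siANKRD10-1 (all genes, 10.6%). HLA-E and RAET1L rose and ULBP3 fell after siANKRD10-2 (all genes, 36.3%). Among the checkpoint receptors, PDCD1 (PD-1) had 0 to 4 and TIGIT 0 to 6 reads per library. HAVCR2 (TIM-3), the receptor of galectin-9, rose from 1.53 to 3.25 CPM after siANKRD10-2, by 1.08 ± 0.21 (edgeR adjusted p = 0.00019), and CD96 fell by 1.08 with ANKRD10-2. Over all 121 companion genes, 49 of 92 tested were called in KO1 and 54 of 93 in KO2, where 36.1% and 38.5% of all genes tested were called. Of 90 tested in both, 27 (30.0%) were called in the same direction, 21 up and 6 down, and 7 (7.78%) in opposite directions. Over all 17445 genes tested in both knockouts these shares were 17.7% and 4.16%.

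Some of these companion calls rested on single libraries. Leaving out each library in turn, 34 of 49 calls in KO1 and 41 of 54 in KO2 were made every time, as were 9 of 16 with ANKRD10-1, 22 of 33 with ANKRD10-2, 6 of 20 after siANKRD10-1 and 25 of 37 after siANKRD10-2. Among the genes named above, ADORA2A, ENPP1, NECTIN4, THBS1, KYNU, AHR, KYAT3 and MICB each lost their KO1 call in this way, with a highest adjusted p of 0.439, 0.0909, 0.183, 0.0951, 0.17, 0.131, 0.114 and 0.134. In KO2 CD58, CEACAM1, ENTPD2, KYAT3 and IL4I1 did (0.0713, 0.0624, 0.0768, 0.062 and 0.0743), and BTN3A1 and BTN3A2 did with ANKRD10-1 (0.185 and 0.123). With ANKRD10-2 the calls of HIP1R, CD96, BTN3A1, ADK, KYAT1, IL4I1 and MICB were lost (0.0988, 0.0697, 0.111, 0.0669, 0.151, 0.128 and 0.0658). After siANKRD10-1 those of CALR, AHR, IL4I1, MICA and MICB were lost (0.187, 0.086, 0.117, 0.0531 and 0.149), and after siANKRD10-2 those of CALR, BTN2A1, SLC29A1, AADAT, HLA-E and RAET1L (0.109, 0.0901, 0.0628, 0.1, 0.101 and 0.115).

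For 3 ligands the genes with the most similar pattern over the 12 knockout libraries were sought among 10002 genes by Pearson's r of log2(CPM + 1), as a description in which the libraries share their groups. CD274 was followed most closely by OSBPL1A (r = 0.806), SCYL3 (0.792) and THRB (0.788). NT5E was matched by PAK6 (0.993), KRT23 (0.993) and EXT2 (0.992), and CD47 by MTARC1 (0.975), UBQLN1 (0.973) and NOL6 (0.971). Among the ligands, the r of NT5E with IDO1 was -0.921 and that of CD47 with LGALS9 was -0.896, while CD274 lay between -0.538 (PVR) and 0.321 (IDO1) with the others.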

How the data were processed

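Gene counts were deposited by the authors as 3 tables of raw counts per gene, with no normalization. Per the labels' processing notes, reads were trimmed (Trimmomatic 0.36), aligned to GRCh38 and counted with featureCounts of Subread 1.5.1. The study's methods name HISAT2 as the aligner and StringTie for gene levels, so the sources differ on how genes were quantified. The library kit was stranded, and the annotation release and the strand setting of the counting are not given in the sources used here. Groups were taken from the labels. The 10 ligand genes and the companion lists were chosen with earlier results of these data known.

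Each table was analysed on its own. CPM was computed on library totals scaled by TMM over all libraries of a table. Genes were filtered with filterByExpr (minimum count 10, minimum total 15), scaled by TMM and tested with edgeR 4.0.16 (quasi-likelihood, R 4.3.3) over all genes with 3 libraries per group, and the standard error is the log2 fold change divided by the root of F. The contrast of KO1 and KO2 effects was an interaction in 1 fit of the knockout table. Companion genes were named by rank: the 3 largest called changes in each direction without overlap and with a mean of at least 1 CPM in a group, and the 5 with the largest change shared by both knockouts. Other companion genes named in the text were chosen after their values were seen. Alternatives were DESeq2 1.42.0, other scaling, no filter, pooled fits, a replicate block and each library left out.

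The test was checked on simulated counts: of log2 changes of 2 in genes with a mean of 300 counts or more, 100% were recovered in KO1 against WT1, and 77.3% under 300 counts. For the difference of the KO1 and KO2 effects 25.5% were recovered under 300 counts. Log2 changes of 1 in KO1 against WT1 were recovered in 96.9% at 300 counts or more and in 14.7% under 300. For the difference of the effects, 3% of changes of 1 were recovered under 300 counts. Fewer genes were changed in the simulation than were called in the knockouts, so recovery in the data may differ. The criterion for passing was set per count class after a first criterion over all genes had failed for that difference. Promoter windows were read from a RefSeq table for GRCh38.p14. One gene of the companion lists is not reported here, though it enters the counts over all companion genes.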

Additional observations from a re-analysis of the deposited data

Results flagged for a closer look

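The effects of the 2 RBPMS sgRNA populations differed for 7 of the 9 ligands tested, where they differed for 23.3% of all genes. Each was compared by an interaction test in edgeR (KO1 effect minus KO2 effect, log2 scale, 3 libraries per group). NECTIN2 (-1.03 ± 0.09, edgeR adjusted p = 2.91e-07) and PVR (-0.90 ± 0.08, edgeR adjusted p = 3.46e-07) fell in KO1 and rose in KO2, and their neighbours within 5 Mb had a median difference of -0.55. NT5E rose in both and more in KO2 (-1.39 ± 0.12, edgeR adjusted p = 4.73e-07). LGALS9 fell in both and more in KO1 (-0.68 ± 0.11, edgeR adjusted p = 0.000169), with WT2 above WT1 for this gene. IDO1 fell in both and more in KO2 (1.76 ± 0.46, edgeR adjusted p = 0.00993). CD276 fell in KO1 and was not called in KO2 (-0.28 ± 0.07, edgeR adjusted p = 0.00484), and CD47 rose in KO1 and was not called in KO2 (0.25 ± 0.05, edgeR adjusted p = 0.00225).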

How the results depend on the processing

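Where a change of 1 or more on the log2 scale was also required, 4 ligands were called in KO1 and 3 in KO2. Of all genes this rule called 1149 of 17865 and 1095 of 18267. With ANKRD10-1 it called 1 ligand (all genes, 80 of 20457) and with ANKRD10-2 2 (241 of 20177). After siANKRD10-2 it called 0 (500 of 18924), between the ANKRD10 forms 1 (72 of 20052) and between the siRNAs 0 (514 of 18832). Between the KO1 and KO2 effects it called 3 (1059 of 19189) and between the WT groups 0 (16 of 18335). With any 1 library removed, 7 to 8 ligands were called in KO1 (all genes, 5032 to 6400) and 5 to 7 in KO2 (5942 to 6231). The ranges were 2 to 3 with ANKRD10-1 (700 to 1549) and 4 to 5 with ANKRD10-2 (2617 to 3533). They were 0 to 1 after siANKRD10-1 (949 to 2430) and 2 to 2 after siANKRD10-2 (5643 to 6344). Between the forms 2 to 4 ligands were called (694 to 1396) and between the siRNAs 2 to 4 (5606 to 7101). Between the KO1 and KO2 effects 7 to 8 were called (3782 to 4308), and between the WT groups 0 to 1 (71 to 133). Replicate numbers did not pair the samples (correlations of same-numbered deviations from -0.035 to 0.082). With the replicate block 1 ligand, NECTIN2, was called after siANKRD10-1 (adjusted p 0.0398), the PDCD1LG2 and IDO1 calls between forms and between siRNAs were lost (adjusted p 0.0563 and 0.0557), and IDO1 between the WT groups turned to -0.03. With DESeq2 those 2 calls were lost too (adjusted p 0.0597 and 0.0618) and CD276 was called in KO2 (adjusted p 0.0251). With all libraries of a table in 1 fit PDCD1LG2 was called with ANKRD10-2 (adjusted p 0.0449) and lost between the forms (adjusted p 0.0578), and NECTIN2 was called between the siRNAs (adjusted p 0.047). With RLE size factors CD276 was called in KO2 (adjusted p 0.0467). Without a filter PDCD1LG2 missed the threshold in KO2 (adjusted p 0.0502) and was called with ANKRD10-2 (adjusted p 0.0312).

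Uncalled log2 fold changes turned sign with 1 library removed. For ANKRD10-1 these were PDCD1LG2 (to 0.02 and 0.05, range -0.30 to 0.05) and IDO1 (0.07 and 0.14, -0.34 to 0.14). For ANKRD10-2 they were NT5E (0.01, -0.04 to 0.01) and NECTIN2 (-0.05, -0.0009 and -0.01, -0.05 to 0.06). For siANKRD10-1 they were PDCD1LG2 (-0.20 and -0.03, -0.20 to 1.28) and LGALS9 (0.01 and 0.02, -0.09 to 0.02). For siANKRD10-2 they were CD276 (0.01 and 0.002, -0.02 to 0.01), CD47 (-0.01 and -0.06, -0.06 to 0.07) and NT5E (-0.01, -0.01 to 0.11). CD47 between the siRNAs (-0.002 to 0.12), PDCD1LG2 between the KO1 and KO2 effects (-0.09 and -0.22, -0.22 to 0.63), and NT5E (0.02, -0.15 to 0.02) and IDO1 (-0.06 and -0.28, -0.28 to 0.22) between the WT groups did so too. The cause was not tested. Apart from these sign changes, PDCD1LG2 and VTCN1 had few reads per library, 2 to 78 and 0 to 15, so their levels are imprecise. VTCN1 entered none of the tests.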
